A study of Mus musculus with 8 samples.

Results

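Matrix proteases and their inhibitors were followed as a fixed list of 33 genes, whose rows were taken by symbol from the 39089 genes counted in each sample. The list held 9 secreted and 5 membrane-bound matrix metalloproteinases (MMPs), 5 MMP inhibitors, 7 ADAM proteases, 4 genes of the plasminogen activator system and 3 lysosomal cathepsins. RNA-seq was performed on 8 samples in 4 groups of 2. Myc-CaP cells, a prostate cancer line from a *Myc*-transgenic mouse, carried either an empty vector (Myc-CaP EV, here WT) or guide RNAs against *Arid1a* (Myc-CaP Arid1a KO), and were grown as subcutaneous tumors in male FVB mice aged 6 weeks at inoculation. From day 16, mice received daily gavage for 2 weeks of either JSH-23, a compound that keeps the p65 subunit of NF-κB out of the nucleus, or corn oil (vehicle). All 4 groups thus share the *Myc* transgene of the cell line, the host strain and the gavage, and tumor cells sorted as EpCAM+ and CD45- gave the RNA. The sources used here do not say whether the KO cells were 1 clone, nor which tumors made up each sample, so that p-values measure only the spread between these samples, which may be technical.

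MMPs are zinc proteases that cut collagens, laminins and other matrix proteins, and most are made as inactive precursors. TIMPs bind the active site of MMPs and of some ADAMs, and RECK is a membrane-anchored inhibitor. ADAMs are membrane proteases that release the outer part of growth factors, cytokines and receptors from the cell surface. The plasminogen activators uPA (*Plau*) and tPA (*Plat*) turn plasminogen into plasmin, which degrades fibrin and activates some MMP precursors, and cathepsins B, D and L work mainly in lysosomes. In tumors much of the secreted MMP supply is known to come from fibroblasts and myeloid cells rather than from the carcinoma cells.

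The total counts lay between 16401581 and 21972231 per sample, at which 3 counts, taken as the floor of detection, equal 0.137 to 0.183 CPM (read counts scaled by the library size, with TMM factors); such limits cover counting error only. *Arid1a* itself (4:133679008-133756769, GRCm38) stood at 156 and 161 CPM in WT and at 103 and 106 CPM in KO tumors under vehicle, and at 144 and 155 against 93.8 and 95.9 CPM with JSH-23, so that the KO libraries were lower in both arms without a loss of the transcript. The sort label was checked on markers. *Epcam* had 0 to 4 counts and *Cdh1* 1 to 19 counts in a sample, although cells had been sorted on EpCAM, while *Krt8* had 540 to 2308, *Krt19* 207 to 2106 and *Cldn3* 4167 to 7023. *Ptprc*, which encodes CD45, had 0 to 10 counts. Among 8 neutrophil markers none passed the filter on low counts, and their sum was at most 11 counts in a sample. The sums were 9 to 34 counts for 4 leukocyte, 22 to 69 for 6 endothelial, 89 to 258 for 5 erythroid, 806 to 1358 for 8 fibroblast and 5514 to 11149 for 7 epithelial markers. Of the 5 epithelial markers tested, 2 were called higher in KO tumors with vehicle and 3 with JSH-23, against 7.48% and 3.74% of all tested genes. The 9 macrophage markers are given beside *Mmp14*.

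Lysosomal cathepsins and sheddases made up most of the transcripts of the list, and most MMPs were close to silent. On the TPM scale, which corrects for gene length, *Ctsd* (cathepsin D) led with a mean of 559 over the 8 samples, followed by *Adam15* (196), *Ctsl* (191), *Ctsb* (151), *Adam9* (135), *Adam10* (128) and *Timp2* (126). The 3 cathepsins took 45.1% to 53.6% of the summed TPM of the list. The next levels were 87.1 for *Timp1*, 75.8 for *Plat*, 42.5 for *Adam17*, 39.2 for *Mmp11*, 37.1 for *Plaur*, 12.9 for *Mmp19* and 10.1 for *Adam8*, and *Reck* (5.99) and *Mmp24* (5.80) came next, with the mean of every other member under 1 TPM. Of the 33 genes, 20 passed the filter on low counts and 18 had a mean of at least 10 counts, whereas 7 had at most 3 counts in every sample.

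**Figure D1:**
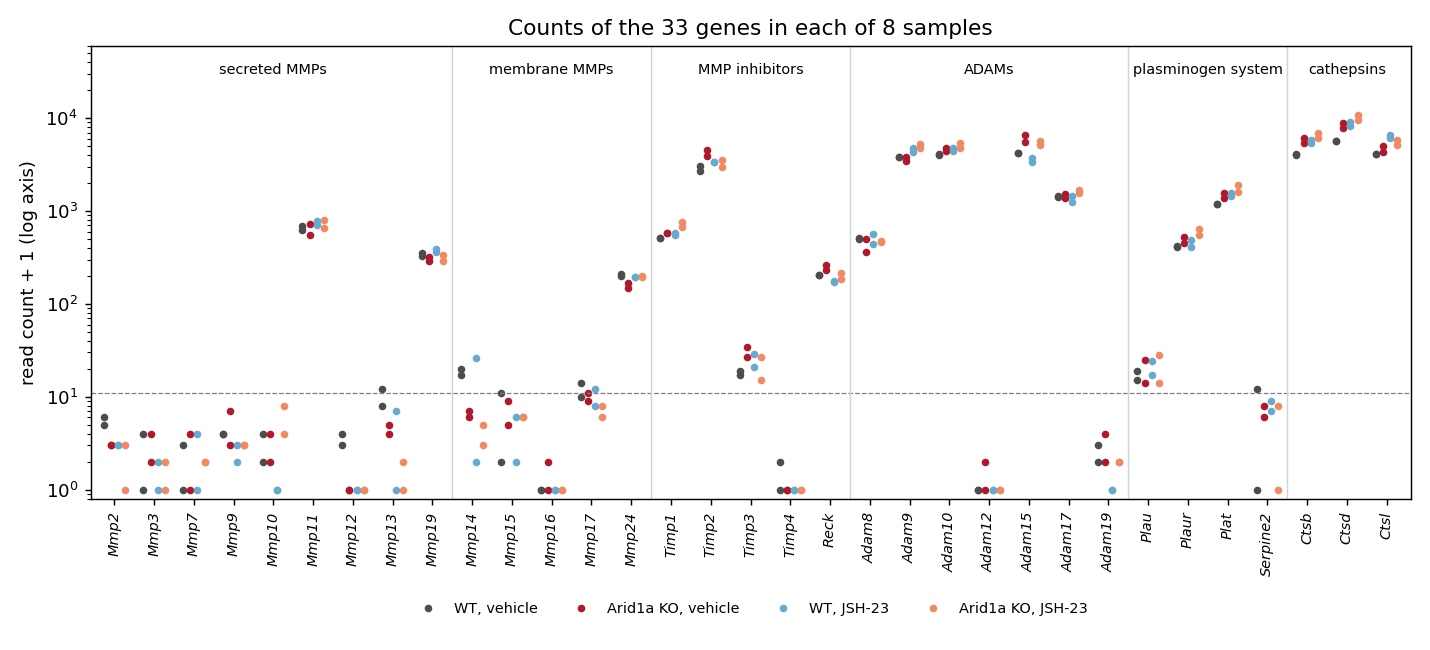
Read counts (plus 1, log axis) of the 33 genes in each of 8 samples, with genes on the horizontal axis ordered by role and colours for the 4 groups; the dashed line marks 10 counts. Among the 14 MMPs, *Mmp11*, *Mmp19* and *Mmp24* never fall below 147 counts, nor the 3 cathepsins below 4046.

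Differences between the groups were mostly smaller than 1.5-fold. A gene was called when its adjusted p was under 0.05 in edgeR's quasi-likelihood test and its change was at least 1.5-fold. In KO against WT tumors with vehicle, 1 of the 20 tested members was called (*Mmp14*, lower), where 12.6% of all 13921 tested genes were (7.48% higher and 5.16% lower). With JSH-23, KO against WT again gave 1 call (*Mmp14*, lower), against 8.71% of all genes (3.74% higher and 4.97% lower). JSH-23 against vehicle gave 1 call in WT tumors (*Ctsl*, higher), against 15.8% (5.55% higher and 10.2% lower), and 0 in KO tumors, against 26% (9.1% higher and 16.9% lower). The interaction, which is the JSH-23 effect in KO minus that in WT tumors, gave 0 calls, against 9.07% (3.3% higher and 5.76% lower). For both counts of 0, DESeq2 also gave 0, and edgeR gave 14 members with JSH-23 in KO tumors and 8 in the interaction at an unadjusted p under 0.05. The share of all genes was not taken at that p. At an adjusted p under 0.05 it was already 67.8% and 38.4%, so these 2 counts do not set the members apart.

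By the adjusted p alone, 5 members were higher and 7 lower in KO tumors with vehicle, against 25% and 25.5% of all genes (50.5% together). The corresponding counts were 2 higher and 6 lower in KO against WT with JSH-23 (23.2% and 23.8% of all genes, together 47%), 8 higher and 2 lower with JSH-23 in WT (28.6% and 27.2%, together 55.8%), 10 higher and 3 lower with JSH-23 in KO (33.4% and 34.4%, together 67.8%), and 3 and 4 for the interaction (20.5% and 17.9%, together 38.4%). The median log2 fold change of the tested members was -0.00, -0.11, 0.15, 0.13 and -0.08 in these comparisons, against -0.02 to 0.00 over all tested genes. Altogether 17 of the tested members passed the adjusted p in at least 1 of the 4 pairwise comparisons, and *Mmp17*, *Timp3* and *Plau* in none. In 16 of the 20 no comparison reached 1.5-fold in size, the others being *Mmp14*, *Mmp17*, *Timp3* and *Ctsl*. The shares of all genes beside the 17 and the 16 were not taken. In single pairwise comparisons 47% to 67.8% of all genes passed the adjusted p, so these counts do not set the members apart. The comparisons share groups, so their counts are not independent. The scaling matters for every one that includes KO tumors with JSH-23. For JSH-23 against vehicle in KO tumors, the median log2 fold change over all genes was -0.02 with TMM scaling, -0.13 without it and -0.20 on log2(TPM + 1), and the share of called genes that were higher was 35%, 22.5% and 12.6%. For KO against WT with JSH-23 the shares were 42.9%, 29.6% and 15.5%, and for the interaction 36.5%, 18.8% and 10.1%.

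**Figure D2:**
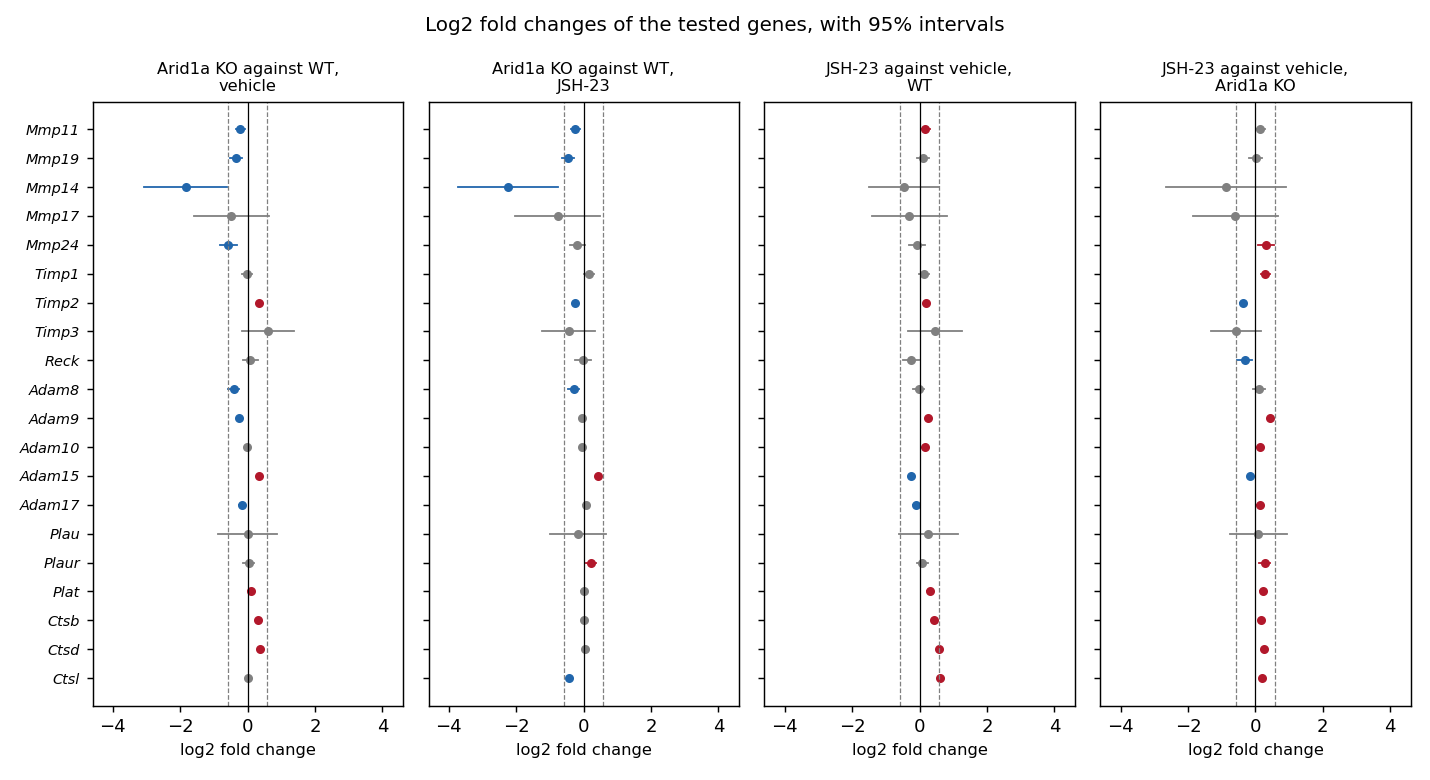
Log2 fold changes (horizontal axis) with 95% intervals of the 20 tested genes in 4 comparisons, from edgeR with TMM scaling; red and blue mark genes higher and lower at an adjusted p under 0.05, grey marks the others, and dashed lines mark 1.5-fold. *Mmp14* lies beyond the lower line in both KO against WT panels with wide intervals, and the 3 cathepsins lie to the right in the panel for JSH-23 in WT tumors.

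The classical collagenase, gelatinase and stromelysin genes were at or near the floor in all groups. *Mmp2*, the gelatinase A gene, had 4 and 5 counts in WT and 2 and 2 in KO tumors with vehicle, 2 and 2 in WT and 0 and 2 in KO tumors with JSH-23. *Mmp9* (gelatinase B) had 1 to 6 counts per sample, *Mmp3* and *Mmp7* (stromelysin 1 and matrilysin) at most 3. *Mmp10* (stromelysin 2) had 1 and 3 counts in WT and 3 and 1 in KO tumors with vehicle, then 0 and 0 in WT and 7 and 3 in KO tumors with JSH-23. *Mmp12*, the macrophage metalloelastase gene, had 2 and 3 counts in WT tumors with vehicle and 0 in the other 6 samples. *Mmp13*, the main interstitial collagenase gene of the mouse, had 11 and 7 counts in WT and 4 and 3 in KO tumors with vehicle, then 6 and 0 in WT and 0 and 1 in KO tumors with JSH-23. None of these genes passed the filter. Without the filter, edgeR called *Mmp10* higher in KO than in WT tumors with JSH-23, at an adjusted p of 0.0497. *Mmp13* passed the filter in 7 of the 8 fits with 1 sample left out, and it was called lower in KO than in WT tumors with JSH-23 without WT replicate 2 of that arm (adjusted p = 0.0459, edgeR) and lower with JSH-23 in WT tumors without WT replicate 1 (adjusted p = 0.0107, edgeR), the sample with 6 counts. Macrophage marker counts, given below, were also highest in WT tumors with vehicle, and their part in these counts was not tested. *Mmp3*, *Mmp7*, *Mmp10*, *Mmp12* and *Mmp13* lie in the MMP cluster on chromosome 9 (9:7272514-7699585, GRCm38), where the 10 counted genes summed to 3 to 20 reads in a sample. *Mmp15* and *Mmp16*, both membrane-type MMP genes, had 1 to 10 and 0 to 1 counts, and *Mmp17*, whose product is anchored by a lipid, had 5 to 13.

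The promoter windows of the silent cluster genes on the list held a known element, except that of *Mmp12*, which held none of the strings searched. RefSeq windows of 250 bases before a transcript start (GRCm38.p6) were used where that start lay within 50 bases of the 5′ end of the counted gene, which held for 20 of the 33 members; for *Ctsl*, *Plaur* and *Adam8* the only windows lay farther inside the gene and were not used. The windows were searched on both strands for the AP-1 element TGANTCA, which FOS and JUN factors bind. It was present in 4 of the 20 genes, against 7.19% of the 22754 windows so placed over all genes. These were *Mmp3*, *Mmp7*, *Mmp10* and *Mmp13*, none of which passed the count filter. The *Mmp13* window (chr9:7272264-7272513, plus strand) is shown as the example of an element next to a gene that was hardly read, with the AP-1 match in capitals.
Mmp13: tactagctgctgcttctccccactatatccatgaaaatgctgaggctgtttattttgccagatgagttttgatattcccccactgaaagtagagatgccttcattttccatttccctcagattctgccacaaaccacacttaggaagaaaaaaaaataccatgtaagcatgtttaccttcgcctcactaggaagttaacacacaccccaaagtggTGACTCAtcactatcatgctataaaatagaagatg
The match starts 35 bases before the gene start. A match describes the letters of the window and not binding. The NF-κB consensus, searched because JSH-23 acts on this factor, matched in 0 of the 20 genes, against 3.56% of all windows, which says only that these letters are not in these windows.

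*Mmp11*, *Mmp19* and *Mmp24* carried 95.6% to 98.6% of the MMP transcripts of the list in every sample, as summed TPM, and each was lower in KO than in WT tumors with vehicle. The 9 other MMP genes, which are outside the list, summed to 4.56 and 3.85 TPM in WT and 6.17 and 6.43 in KO tumors with vehicle. With JSH-23 they summed to 8.72 and 7.48 TPM in WT and 2.13 and 2.25 in KO tumors. *Mmp11* (stromelysin 3, 10:75923221-75932502), a protease with little activity on the classical matrix substrates, stood at 40.7 and 36.6 CPM in WT and 30.8 and 35.5 CPM in KO tumors under vehicle, and at 43.6 and 43.5 against 35.2 and 38.0 CPM with JSH-23. The KO samples were below the WT samples in both arms, with log2 fold changes of -0.22 (SE 0.070, adjusted p = 0.00744, edgeR) and -0.25 (SE 0.067, adjusted p = 0.00155, edgeR). The first did not pass without WT replicate 1 or KO replicate 1, and the second did not pass without KO replicate 1. On log2(TPM + 1) centred on the median gene of each sample (centred TPM) neither passed (-0.22 and -0.20, adjusted p = 0.0847 and 0.117, limma). The 8 fibroblast markers, of a cell type known to express *Mmp11*, summed to 1032 and 1126 counts in WT and 1187 and 1358 in KO tumors with vehicle, and to 1138 and 1021 against 806 and 875 with JSH-23, and their part in the *Mmp11* values was not tested.

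*Mmp19* (10:128790910-128800827), whose product cuts basement membrane proteins, was at 19.6 and 20.5 CPM in WT and 16.1 and 15.5 CPM in KO tumors under vehicle, and at 21.7 and 21.8 against 15.6 and 16.1 CPM with JSH-23. Its levels did not overlap between the genotypes. The log2 fold change was -0.35 (SE 0.093, adjusted p = 0.00119, edgeR) with vehicle and -0.45 (SE 0.091, adjusted p = 2.3e-05, edgeR) with JSH-23, and it stayed past the adjusted p without each sample in turn. JSH-23 itself left *Mmp19* at a log2 fold change of 0.12 in WT (95% interval -0.06 to 0.29) and 0.01 in KO tumors (-0.18 to 0.20).

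*Mmp24* (2:155775342-155818367), the gene of the membrane protease MT5-MMP, was at 12.3 and 11.7 CPM in WT and 8.12 and 8.04 CPM in KO tumors with vehicle, so that the log2 fold change was -0.57 (SE 0.12, adjusted p = 6.01e-05, edgeR) or 1.48-fold, just under the threshold. In tumors with JSH-23 it was at 10.9 and 11.8 CPM in WT and 10.5 and 9.50 CPM in KO, closer together than with vehicle, and the log2 fold change was -0.18 (95% interval -0.42 to 0.06, adjusted p = 0.215, edgeR). The difference between these 2 effects was 0.39 (95% interval 0.05 to 0.73) with an adjusted p of 0.0624 (edgeR), so that an effect of JSH-23 that depends on genotype was not called. This difference passed the adjusted p on centred TPM (0.41, adjusted p = 0.0191, limma). It did not pass with DESeq2 (0.40, adjusted p = 0.186) or without TMM scaling (0.29, adjusted p = 0.182, edgeR).

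*Mmp14*, the gene of MT1-MMP, which activates the precursor of MMP2 and cuts collagen at the cell surface, was the only member called between the genotypes, on few reads. It had 19 and 16 counts in WT and 5 and 6 in KO tumors with vehicle, and 25 and 1 in WT against 4 and 2 in KO tumors with JSH-23. The vehicle groups did not overlap, and the WT samples with JSH-23 stood on either side of the KO samples. With vehicle the log2 fold change was -1.84 (SE 0.62, 95% interval -3.08 to -0.60, adjusted p = 0.0102, edgeR). This call was lost with DESeq2 (-1.87, adjusted p = 0.260) and without WT replicate 1 (-1.71, adjusted p = 0.0818), KO replicate 1 (-1.81, adjusted p = 0.0604) or KO replicate 2 (-1.88, adjusted p = 0.0629). With JSH-23 it was -2.25 (SE 0.75, 95% interval -3.73 to -0.76, adjusted p = 0.00971, edgeR), and without WT replicate 1 the direction turned, to 1.24 (adjusted p = 0.570, edgeR); it was not called without KO replicate 2 (-1.75, adjusted p = 0.122, edgeR). JSH-23 against vehicle in WT tumors gave -0.46 (95% interval -1.51 to 0.59), and -3.94 without that same WT replicate 1 (adjusted p = 0.00201, edgeR).

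Some macrophage markers were low in samples where *Mmp14* was low, although they did not follow it in every sample. In KO tumors with JSH-23, *Mmp14* had 4 and 2 counts where *Csf1r* had 1 and 4. The 9 markers summed to 423 and 443 counts in WT and 268 and 341 in KO tumors with vehicle, and to 382 and 200 in WT and 188 and 200 in KO tumors with JSH-23. *Csf1r*, the receptor for the macrophage growth factor CSF1, had 21 and 24 counts in WT and 2 and 6 in KO tumors with vehicle, then 15 and 1 in WT and 1 and 4 in KO tumors with JSH-23. *Adgre1*, which encodes F4/80, had 17 and 19, 0 and 0, 17 and 1, and 0 and 2 counts in the same order. The WT sample with JSH-23 that had 1 read of *Mmp14* was thus also the one with 1 read each of *Csf1r* and *Adgre1*. Of the 9 markers 6 could be tested. Among these, 5 were called lower in KO tumors with vehicle and 2 with JSH-23, against 5.16% and 4.97% of all tested genes. *Cd14*, the most abundant of the markers, had 181 and 193 counts in WT and 204 and 259 in KO tumors with vehicle. The part of macrophage RNA in the *Mmp14* values was not tested, and in sorted bulk samples fewer cells of a type and less RNA per cell cannot be told apart.

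**Figure D3:**
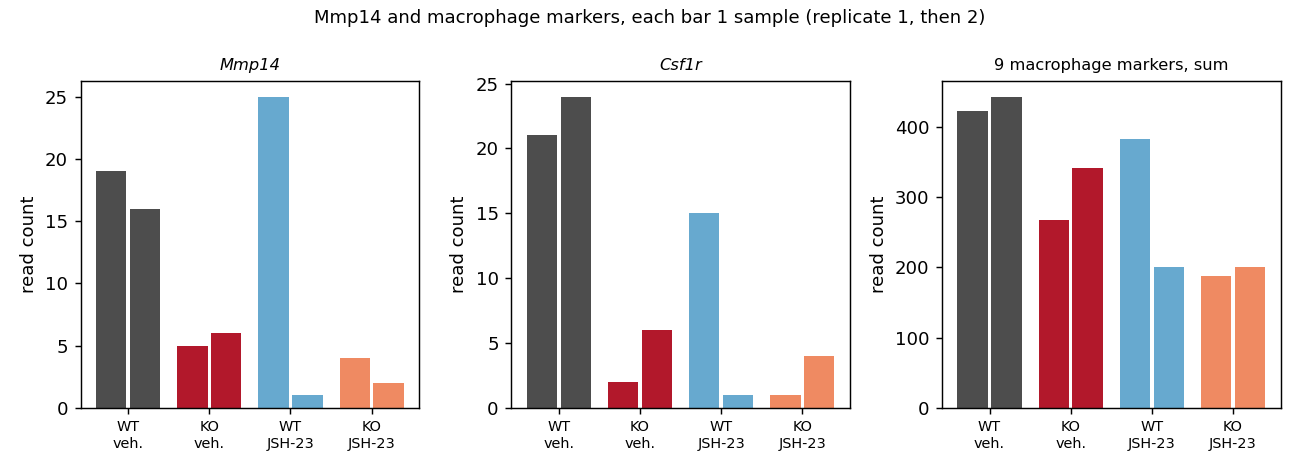
Read counts of *Mmp14*, of the macrophage gene *Csf1r* and of 9 macrophage markers summed, each bar being 1 sample (replicate 1, then 2) in the 4 groups. The WT sample with 25 *Mmp14* counts under JSH-23 has 15 *Csf1r* counts, and its fellow has 1 of each.

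Among the inhibitors, *Timp2* was raised in KO tumors and lowered there by JSH-23, whereas JSH-23 raised it in WT tumors. TIMP2 both inhibits MMPs and, with MT1-MMP, takes part in the activation of the MMP2 precursor. *Timp2* (11:118301061-118355411) was at 162 and 181 CPM in WT and 214 and 219 CPM in KO tumors under vehicle, then 188 and 207 CPM in WT and 163 and 170 CPM in KO tumors with JSH-23. The order of the genotypes was therefore opposite in the 2 arms, with no overlap in either. KO against WT gave a log2 fold change of 0.34 (SE 0.034, adjusted p = 2.33e-13, edgeR) with vehicle and -0.24 (SE 0.035, adjusted p = 1.06e-08, edgeR) with JSH-23. JSH-23 against vehicle gave -0.38 in KO (SE 0.034, adjusted p = 3.66e-16, edgeR) and 0.20 in WT tumors (SE 0.035, adjusted p = 1.42e-06, edgeR). The interaction was -0.58 (SE 0.049, 95% interval -0.68 to -0.48, adjusted p = 1.94e-16, edgeR), the largest in size among members past the adjusted p. It lay just under 1.5-fold, kept its sign under each scaling (-0.68 without TMM, -0.77 on log2(TPM + 1), -0.53 on TPM centred on the median gene) and passed the adjusted p without each sample in turn. The rise in WT tumors did not pass on log2(TPM + 1) (0.16, adjusted p = 0.108, limma) or on centred TPM (0.18, adjusted p = 0.0765, limma), and the KO against WT value with JSH-23 did not pass on centred TPM (-0.20, adjusted p = 0.0663, limma). *Timp2* overlaps *Cep295nl* on the same strand, so that reads of the shared stretch cannot be placed with certainty.

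The *Timp2* window before its RefSeq start (chr11:118355412-118355661, minus strand, GRCm38.p6) is given because this was the inhibitor with the opposite responses. Capitals mark the GC box GGGCGG, a letter string of Sp1-type factors, which was found in 13 of the 20 genes and in 29.3% of all windows.
Timp2: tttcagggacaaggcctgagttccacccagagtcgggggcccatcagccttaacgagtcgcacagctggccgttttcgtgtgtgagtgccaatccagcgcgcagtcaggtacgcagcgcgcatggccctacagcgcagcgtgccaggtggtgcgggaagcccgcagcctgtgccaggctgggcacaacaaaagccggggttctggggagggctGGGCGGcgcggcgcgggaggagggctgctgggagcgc
The match starts 37 bases before the start, and the E-box, AP-1 and NF-κB strings were not found in this window.

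*Timp1* (X:20870166-20874737), an inhibitor gene known to be inducible by inflammatory signals, stood at 30.0 and 29.8 CPM in WT and 32.0 and 27.8 CPM in KO tumors with vehicle, with overlap and a log2 fold change of -0.01 (95% interval -0.15 to 0.14, adjusted p = 0.963, edgeR). JSH-23 did not lower it. It was at 32.1 and 33.3 CPM in WT and 36.6 and 36.4 CPM in KO tumors with JSH-23, and rose in KO by 0.29 (SE 0.070, adjusted p = 0.0002, edgeR), a size that fell to 0.18 without TMM and 0.05 on log2(TPM + 1). On centred TPM this rise was 0.32. *Reck* (4:43875521-43944806) was at 12 and 11.9 CPM in WT and 12.7 and 12.5 CPM in KO tumors under vehicle, and at 9.60 and 10.7 against 10.1 and 10.2 CPM with JSH-23. Both genotypes were lower with JSH-23, by a log2 fold change of -0.32 in KO (SE 0.11, adjusted p = 0.00943, edgeR) and of -0.24 in WT tumors, which did not pass (95% interval -0.48 to -0.00, adjusted p = 0.0792, edgeR). The *Reck* value in KO tumors did not pass with DESeq2 (adjusted p = 0.0803), nor without KO replicate 1 or 2 with JSH-23 (adjusted p = 0.0550 and 0.0536, edgeR). *Timp3*, whose product binds to the matrix, had 16 and 18 counts in WT and 33 and 26 in KO tumors with vehicle, then 28 and 20 in WT and 26 and 14 in KO tumors with JSH-23, and passed in no comparison. *Timp4* had 1 count in 1 sample and 0 in the other 7.

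Taken per sample, the balance of TIMP over MMP transcripts of the list was higher in KO tumors. The summed TPM of the 4 TIMPs was 2.91 and 3.34 times that of the 14 MMPs in WT and 4.68 and 4.19 times in KO tumors with vehicle, and 3.15 and 3.38 times in WT and 3.84 and 3.76 times in KO tumors with JSH-23. A ratio within a sample does not depend on the scaling between samples. The 4 KO samples were above the 4 WT samples, and in KO tumors the ratio was lower with JSH-23 than with vehicle without overlap. With 2 samples against 2 an exact permutation test cannot give less than p = 0.333, and no test was made. The MMP sum was 63.3 to 68.8 TPM in WT samples and 48.5 to 55.6 TPM in KO samples, and the TIMP sum was highest in KO tumors with vehicle (242 and 233 TPM) and lowest in KO tumors with JSH-23 (186 and 188 TPM).

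**Figure D4:**
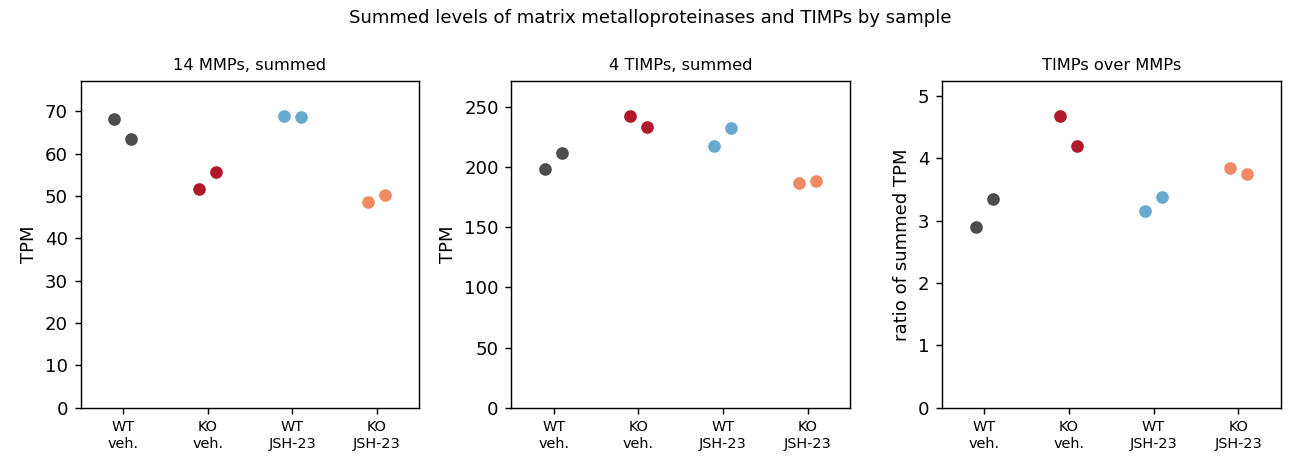
Summed TPM of the 14 MMPs, of the 4 TIMPs, and the ratio of the sums, with 1 point a sample in the 4 groups. The ratio lies between 2.91 and 3.38 in the WT samples and between 3.76 and 4.68 in the KO samples.

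Among the ADAMs, *Adam15* was higher and *Adam8* lower in KO tumors, and *Adam9* rose with JSH-23 in both genotypes. *Adam15* (3:89339640-89350028), whose product carries an integrin-binding motif, was at 248 and 247 CPM in WT and 306 and 316 CPM in KO tumors under vehicle, and at 208 and 204 against 278 and 276 CPM with JSH-23. The 4 groups were all apart. KO against WT was 0.33 with vehicle (SE 0.025, adjusted p = 1.53e-18, edgeR) and 0.43 with JSH-23 (SE 0.026, adjusted p = 3.75e-23, edgeR), while JSH-23 lowered it by a log2 fold change of -0.26 in WT and -0.17 in KO tumors (adjusted p = 2.49e-13 and 1.12e-08, edgeR). *Adam8* (7:139978932-139995207), a sheddase gene best known from leukocytes, was at 30.0 and 29.6 CPM in WT and 20.1 and 24.3 CPM in KO tumors under vehicle, and at 31.5 and 26.9 against 24.9 and 23 CPM with JSH-23. KO samples were below WT samples in both arms, with log2 fold changes of -0.42 (SE 0.084, adjusted p = 2.09e-05, edgeR) and -0.29 (SE 0.083, adjusted p = 0.00273, edgeR). The second did not pass without WT replicate 1 (-0.17, adjusted p = 0.207, edgeR) or KO replicate 2 (-0.22, adjusted p = 0.0779, edgeR), nor on centred TPM (-0.19, adjusted p = 0.191, limma). The 4 leukocyte markers summed to 34 and 33 counts in WT and 19 and 23 in KO tumors with vehicle, and to 32 and 9 against 21 and 12 with JSH-23, and their part in the *Adam8* values was not tested.

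*Adam9* (8:24949611-25017040) was at 225 and 223 CPM in WT and 190 and 186 CPM in KO tumors with vehicle, and JSH-23 brought both genotypes above these levels, to 267 and 266 and to 256 and 255 CPM. The rise was 0.44 in KO (SE 0.026, adjusted p = 3.04e-24, edgeR) and 0.25 in WT tumors (SE 0.027, adjusted p = 8.18e-13, edgeR), and it kept its sign and its adjusted p on log2(TPM + 1), at 0.20 and 0.21. *Adam10* (9:70678944-70780229) and *Adam17* (12:21323509-21373632) encode the main sheddases of Notch and cadherins and of TNF and EGFR ligands, respectively. *Adam10* was at 235 and 241 CPM in WT and 242 and 231 CPM in KO tumors under vehicle, and at 269 and 270 and at 261 and 262 CPM with JSH-23, so that it was higher with JSH-23 by 0.18 in WT (adjusted p = 4.85e-08, edgeR) and by 0.14 in KO tumors (adjusted p = 1.86e-06, edgeR), the latter turning to -0.10 on log2(TPM + 1). On centred TPM that KO value was 0.17. *Adam17* was at 84.6 and 85.2 CPM in WT and 76.7 and 73.9 CPM in KO tumors under vehicle, then 81.3 and 75.3 in WT and 83.8 and 80.3 CPM in KO tumors with JSH-23, and its largest pairwise log2 fold change was -0.17, in KO tumors with vehicle (SE 0.045, adjusted p = 0.000794, edgeR). *Adam12* and *Adam19* had at most 3 counts in a sample.

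In the plasminogen system the transcripts of tPA and of the uPA receptor were abundant and that of uPA was not. *Plat* (8:22757722-22782848) was at 69.9 and 70.8 CPM in WT and 76.3 and 75.4 CPM in KO tumors under vehicle, and at 87.1 and 87.8 and at 86.4 and 90.7 CPM with JSH-23. It rose with JSH-23 by 0.31 in WT (SE 0.045, adjusted p = 1.46e-08, edgeR) and by 0.22 in KO tumors (SE 0.043, adjusted p = 4.54e-06, edgeR), where log2(TPM + 1) gave -0.02 and centred TPM gave 0.25. The KO effect with vehicle, 0.11 (adjusted p = 0.0407, edgeR), did not pass with DESeq2 (adjusted p = 0.179), nor in 6 of the 8 fits with 1 sample left out. *Plaur* (7:24460937-24475970), which encodes the uPA receptor, was at 24.8 and 24.4 CPM in WT and 25.0 and 25.1 CPM in KO tumors under vehicle, and at 27.4 and 24.6 against 29.6 and 30.7 CPM with JSH-23. It was 0.27 higher with JSH-23 in KO tumors (SE 0.075, adjusted p = 0.00129, edgeR), which did not pass without TMM scaling (0.16, adjusted p = 0.0616). *Plau* had 14 and 18 counts in WT and 13 and 24 in KO tumors with vehicle, then 16 and 23 in WT and 13 and 27 in KO tumors with JSH-23, with overlapping groups. *Serpine2*, the protease nexin gene, had 0 to 11 counts and did not pass the filter. It passed the filter in most fits with 1 sample left out, and was called only without KO replicate 1 with JSH-23. There the log2 fold change of KO tumors with JSH-23 was -5.92 against WT tumors with JSH-23. Against KO tumors with vehicle it was -5.53, both on 0 counts in the 1 KO sample left.

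The lysosomal cathepsins were, of the members past the adjusted p, those that JSH-23 moved furthest in WT tumors, and they moved less in KO tumors. Cathepsin D is an aspartic protease, and cathepsins B and L are cysteine proteases; all can be secreted by tumor cells. *Ctsl* (13:64361890-64370772) was at 243 and 243 CPM in WT and 242 and 246 CPM in KO tumors under vehicle, and at 367 and 375 CPM in WT and 275 and 278 CPM in KO tumors with JSH-23. The genotypes overlapped with vehicle and were far apart with JSH-23. JSH-23 raised it in WT tumors by 0.61 (SE 0.025, 95% interval 0.56 to 0.66, adjusted p = 5.68e-33, edgeR), which is 1.53-fold. This size lies at the 1.5-fold threshold: a test against that threshold gave an adjusted p of 0.483, and on log2(TPM + 1) the value was 0.57. In KO tumors the change was 0.18 (SE 0.025, adjusted p = 1.53e-09, edgeR), -0.06 on log2(TPM + 1) and 0.21 on centred TPM. KO against WT was 0.00 with vehicle (95% interval -0.05 to 0.06) and -0.42 with JSH-23 (SE 0.024, adjusted p = 3.72e-25, edgeR).

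*Ctsd* (7:142375910-142387827) was at 338 and 338 CPM in WT and 432 and 430 CPM in KO tumors under vehicle, and at 509 and 496 CPM in WT and 515 and 518 CPM in KO tumors with JSH-23. *Ctsb* (14:63122462-63145923) was at 240 and 244, 298 and 295, 325 and 328, and 332 and 329 CPM in the same order. For both genes WT tumors with vehicle were lowest and the groups with JSH-23 were close to each other. KO against WT with vehicle was 0.35 for *Ctsd* (SE 0.022, adjusted p = 2.91e-23, edgeR) and 0.29 for *Ctsb* (SE 0.025, adjusted p = 8.96e-17, edgeR). With JSH-23 it was 0.04 for *Ctsd* (95% interval -0.00 to 0.08) and 0.01 for *Ctsb* (-0.03 to 0.06), which turned to -0.15 and -0.18 on log2(TPM + 1). On centred TPM these values were 0.08 and 0.06. JSH-23 in WT tumors gave 0.57 for *Ctsd* (SE 0.021, 1.49-fold, adjusted p = 6.33e-35, edgeR) and 0.43 for *Ctsb* (SE 0.025, adjusted p = 7.31e-25, edgeR). In KO tumors it gave 0.26 for *Ctsd* and 0.16 for *Ctsb* (adjusted p = 1.11e-18 and 2.1e-08, edgeR), or 0.02 and -0.08 on log2(TPM + 1) and 0.29 and 0.18 on centred TPM.

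The difference between the genotypes in the JSH-23 effect had the same sign for the 3 cathepsins under each scaling tried. The interaction was -0.43 for *Ctsl*, -0.31 for *Ctsd* and -0.28 for *Ctsb* (adjusted p = 6.2e-17, 2.4e-14 and 2.04e-10, edgeR). It was -0.53, -0.42 and -0.38 without TMM scaling, -0.62, -0.51 and -0.47 on log2(TPM + 1), and -0.38, -0.27 and -0.23 with TPM centred on the median gene. The share of the list's TPM held by the cathepsins was 45.4% and 45.1% in WT and 48.6% and 48.8% in KO tumors with vehicle, and 53.6% and 53.3% in WT and 51.7% and 51.6% in KO tumors with JSH-23.

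**Figure D5:**
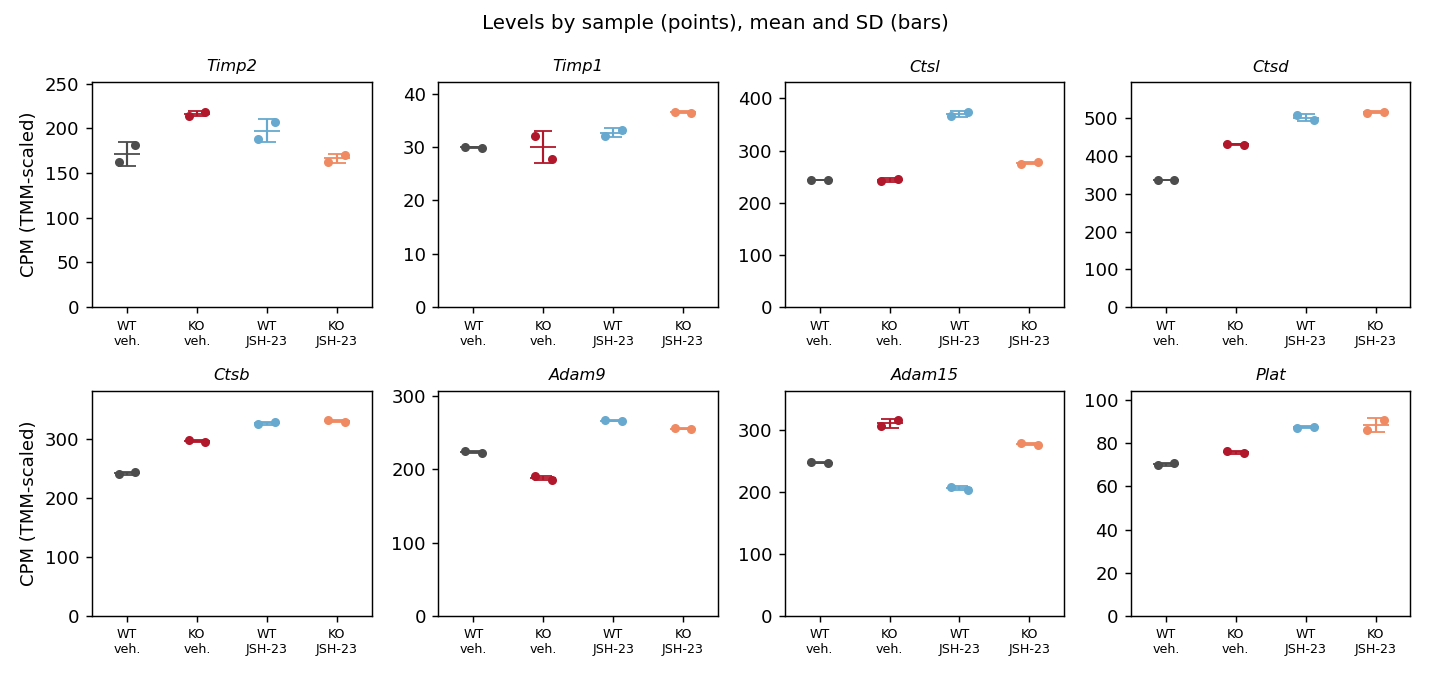
CPM with TMM scaling (vertical axis, from 0) of 8 genes in each sample (points), with group means and SD (bars, n = 2). *Timp2* is highest in KO tumors with vehicle, and *Ctsl*, at 367 and 375 CPM, is highest in WT tumors with JSH-23.

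The *Ctsd* window (chr7:142387828-142388077, minus strand, GRCm38.p6) is printed because *Ctsd* had the highest level of the list and rose with JSH-23. Capitals mark the E-box CACGTG, which MYC and MAX as well as the lysosomal regulators TFEB and TFE3 can bind, and the GC box GGGCGG on either strand.
Ctsd: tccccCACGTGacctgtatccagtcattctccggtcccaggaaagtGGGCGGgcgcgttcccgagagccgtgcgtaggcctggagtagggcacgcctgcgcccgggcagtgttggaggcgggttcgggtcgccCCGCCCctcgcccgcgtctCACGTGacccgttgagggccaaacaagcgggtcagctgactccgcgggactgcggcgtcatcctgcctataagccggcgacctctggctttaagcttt
The E-box starts 245 and 98 bases before the *Ctsd* start. It was found in 3 of the 20 genes (*Adam10*, *Adam19* and *Ctsd*) and in 5.86% of all windows, and no window of *Ctsb* or *Ctsl* was searched. The string is a description of these windows and not a site of binding in these cells.

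Other protease genes and regulators were read through a wider list of 87 genes, of which 47 were tested. In KO against WT tumors with vehicle 7 were called higher and 7 lower, and with JSH-23 6 and 9, against 7.48% higher and 5.16% lower and 3.74% and 4.97% of all tested genes. The median log2 fold changes were -0.00 and -0.02. *Lrp1*, the receptor that takes up protease-inhibitor complexes, was the largest of the named decreases with vehicle. It had 6602 and 6473 counts in WT and 2133 and 2502 in KO tumors with vehicle, and 5314 and 4824 against 1602 and 1808 with JSH-23, with log2 fold changes of -1.69 and -1.77 (adjusted p = 2.74e-56 and 2.14e-54, edgeR). The other named decreases with vehicle were *Adamts14*, which trims procollagen (-1.10), the protease inhibitor gene *Slpi* (-1.05) and the proteoglycanase gene *Adamts1* (-0.73). *Hpse*, the heparanase gene, was higher in KO, with 29 and 34 counts in WT and 115 and 135 in KO tumors with vehicle and log2 fold changes of 1.79 (SE 0.22, adjusted p = 2.44e-10, edgeR) and, with JSH-23, 1.82 (SE 0.30, adjusted p = 5.78e-07, edgeR). *Adam22*, which encodes an ADAM without protease activity, was higher by 1.70 and 1.02 and the cystatin gene *Cst6* by 0.88 and 0.72. *Bsg*, the gene of the MMP inducer basigin (CD147), was higher by 0.69 with JSH-23 (adjusted p = 3.78e-52, edgeR).

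With JSH-23, 3 of the 47 genes were called higher and 6 lower in WT tumors, against 5.55% and 10.2% of all tested genes, and 9 and 13 in KO tumors, against 9.1% and 16.9%. The median log2 fold changes were 0.00 and -0.13. *Adamts1* fell in WT tumors from 3389 and 3449 to 1308 and 1239 counts (-1.45, adjusted p = 1.35e-43, edgeR). *Hpse* was lower in both genotypes, by -1.19 in WT (adjusted p = 0.00223, edgeR) and -1.15 in KO tumors (adjusted p = 6.39e-07, edgeR). In KO tumors the log2 fold changes of the 47 genes ran from -2.80 to 1.70. There *Mmp23* fell from 43 and 61 to 4 and 12 counts (-2.70). *Lgmn*, the gene of the lysosomal protease legumain, was higher by 0.65 in WT tumors (adjusted p = 4.48e-21, edgeR), and *Mme* (neprilysin) by 1.03 in KO tumors (adjusted p = 3.2e-16, edgeR). *Serpinf2*, the antiplasmin gene, was higher in both, by 0.88 and 1.70. *Mmp28* (epilysin) went from 90 and 69 to 202 and 168 counts in WT tumors (1.19, adjusted p = 6.12e-10, edgeR) and from 98 and 99 to 57 and 60 in KO tumors.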

How the data were processed

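RNA-seq of EpCAM+ and CD45- tumor cells came from 8 samples, assigned to 4 groups of 2 by the genotype and treatment in the sample labels. Per the study's methods, the authors aligned paired-end reads to GRCm38/mm10 with TopHat2 and counted them per gene and by strand with HTSeq; the submitters' processing notes name HISAT2, HTSeq and DESeq2 instead, and which aligner made the files was not resolved. The deposited values are raw read counts per gene. TPM values deposited beside them equal counts over gene length, rescaled within each sample, and keep no depth.

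The 33 members and the other gene lists (87 protease and regulator genes, and markers of epithelial, leukocyte, macrophage, neutrophil, fibroblast, endothelial and erythroid cells) were chosen with earlier results of these data known. The filterByExpr filter kept 13921 of 39089 genes, and TMM factors were 0.949 to 1.03. A quasi-likelihood model with 1 mean for each group and all 8 samples was fitted in edgeR 4.0.16 (R 4.3.3) and tested two-sided for 5 comparisons, with Benjamini-Hochberg adjustment over all tested genes; the study's 1.5-fold threshold was applied beside an adjusted p under 0.05. The common biological coefficient of variation was 1.61%. In each group the 2 samples differed by more than sampling noise (chi-square per degree of freedom 1.46 to 1.57) and were kept apart. Members with a mean of at least 10 counts are given by sample and the others by counts; of the other lists, up to 4 called genes per direction and comparison, with the largest changes and at least 1 CPM on average, are named, except 1 that is not reported here, and *Csf1r*, *Adgre1*, *Cd14* and *Mmp28* in KO tumors were named after their values were seen. The fit was checked on simulated counts. Alternatives were DESeq2 1.42.0, no TMM scaling, a block for the replicate number, no filter, a minimum of 10 counts per sample, limma 3.58.1 on log2(TPM + 1) and log2(TPM + 0.1), only the groups compared, no fold threshold, a test against 1.5-fold, a biological coefficient of variation of 0.2 and each sample left out; limma on TPM centred on the median gene was added after the data had been seen. Promoter windows are RefSeq sequences of GRCm38.p6, matched by symbol and kept where the transcript start lay within 50 bases of the 5′ end of the counted gene.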

Additional observations from a re-analysis of the deposited data

Results flagged for a closer look

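The JSH-23 effect differed between the genotypes, by edgeR's interaction term at an adjusted p under 0.05, for 7 of the 20 tested members, against 38.4% of all 13921 tested genes. The interaction (log2 fold change with JSH-23 in KO minus WT tumors) was -0.58 for *Timp2*, -0.43 for *Ctsl*, -0.31 for *Ctsd*, -0.28 for *Ctsb*, 0.24 for *Adam17*, 0.19 for *Adam9* and 0.10 for *Adam15*. The first 4 kept their sign and adjusted p without TMM scaling, on log2(TPM + 1) and on TPM centred on the median gene. At a biological coefficient of variation of 0.2, against 1.61% in the main fit, none of the 7 passed the adjusted p. *Adam9* and *Adam15* turned to -0.01 and -0.10 on log2(TPM + 1), where *Adam17* was at 0.04 with an adjusted p of 0.666 (limma). On centred TPM *Adam9* (0.24, adjusted p = 0.0152, limma) and *Adam17* (0.29, adjusted p = 0.0303, limma) passed. *Adam15* did not (0.15, adjusted p = 0.0833, limma). Without TMM scaling *Adam9*, *Adam17* and *Adam15* did not pass (adjusted p = 0.05003, 0.0814 and 0.931, edgeR). *Adam15* also did not pass with DESeq2 (adjusted p = 0.0765).

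Among the 47 tested genes of the wider protease list, the interaction was called higher for 1 and lower for 5. Of all tested genes 3.3% and 5.76% were. The interaction is given for the 5 called genes averaging 1 CPM or more. It was -2.41 for *Mmp23* (43 and 61 counts in KO tumors with vehicle and 4 to 17 in the other 6 samples), -1.97 for *Mmp28*, -1.36 for *Adamts4*, -0.65 for *Ece1* and 0.90 for *Adamts10* (adjusted p = 0.00225, 2.39e-10, 0.00272, 0.0149 and 0.008, edgeR).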

How the results depend on the processing

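Of the 1865 values of the 100 member results under alternatives, 1613 kept their side of the adjusted p, 188 fell short of it and 39 newly passed. The other 25 changed sign and passed the adjusted p in the main fit, the alternative or both. Sign changes of values that passed in neither are among the 1613. The number of members called was 1 for KO against WT with vehicle, 1 with JSH-23, 0 for JSH-23 in KO, 1 in WT and 0 for the interaction. Both KO against WT counts became 0 with DESeq2, with a minimum of 10 counts per sample (which drops *Mmp14*), in the test against 1.5-fold and on centred TPM, and the second also in a fit of only the groups compared, while it became 2 without the filter (*Mmp10*, *Mmp14*). With that minimum or no TMM scaling the interaction count was 1 (*Timp2*). On log2(TPM + 1) and log2(TPM + 0.1) the counts were 0, 2 (*Mmp19*, *Ctsl*), 1 (*Timp2*), 0 and 2 (*Timp2*, *Ctsl*). Without the fold threshold they were 12, 8, 13, 10 and 7. The *Ctsl* call in WT (1) became 0 in the test against 1.5-fold and at a coefficient of variation of 0.2, both of which ask more than the main test. At that coefficient of variation 48 of the 100 member values fell short of the adjusted p. Of the values past it in the main fit, only those of *Mmp14* between the genotypes kept it. With each sample left out the counts ranged from 0 to 2, 0 to 2, 0 to 2, 1 to 3 and 0 to 1. Of those 25 sign changes, the ones without TMM scaling were *Ctsb* in KO against WT with JSH-23 (-0.063) and *Adam15* in the interaction (-0.0053). Those on log2(TPM + 1) and log2(TPM + 0.1) were as follows. In KO against WT with JSH-23 the values were -0.17 and -0.17 for *Plat*, -0.18 and -0.18 for *Ctsb*, and -0.15 and -0.15 for *Ctsd*. For JSH-23 in KO they were -0.21 and -0.23 for *Mmp19*, -0.10 and -0.10 for *Adam10*, -0.11 and -0.11 for *Adam17*, -0.016 and -0.016 for *Plat*, -0.082 and -0.083 for *Ctsb*, and -0.056 and -0.056 for *Ctsl*. In the interaction they were -0.0061 and -0.0059 for *Adam9* and -0.10 and -0.10 for *Adam15*. *Mmp14* in KO against WT with JSH-23 ranged from -3.14 to 1.24 with each sample left out, and turned sign without WT replicate 1. On centred TPM 0 of the 100 member values changed sign in this way, while 87 kept their side, 11 fell short and 2 newly passed. The cause of these shifts and sign changes was not tested. Same-numbered samples showed no strong shared deviation (correlations of -0.10 to 0.04). Counting noise also lowers such correlations, so they cannot decide whether the numbers pair the samples. With the replicate block the counts stayed at 1, 1, 0, 1 and 0, and 99 of 100 member values kept their side. Depth limits the 15 members with a mean under 10 counts, for which only large changes could be detected.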
